A study of Homo sapiens with 20 samples.

Results

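The genes described here are 37 genes of sterol and fatty acid synthesis, followed in 5 human multiple myeloma cell models with and without indirubin-3'-monoxime (I3MO). The set was given as a list of symbols, and each symbol was matched to its Ensembl gene identifier among the 60483 genes listed in the expression matrix; all 37 were found. They are 18 enzymes of sterol synthesis (7 from acetyl-CoA to farnesyl diphosphate, 11 from squalene to cholesterol), 4 genes of sterol regulation and transport, and 15 genes of fatty acid synthesis, desaturation, elongation, activation and triglyceride formation. Total RNA was sequenced from the cell lines ANBL6, ARP1, RPMI-8226 (written RPMI8226 here) and U266, all labelled wild type and of bone marrow source, and from a form of ANBL6 labelled bortezomib resistant (ANBL6BR here). Bortezomib is a proteasome inhibitor used against myeloma, a cancer of plasma cells, and I3MO is an indirubin, a class of kinase inhibitors. Cells of each model received DMSO as the vehicle or I3MO, at 5 µM in ANBL6 and ANBL6BR and at 10 µM in ARP1, RPMI8226 and U266, with 2 libraries in each of the 10 groups. Dose and model cannot be told apart between these sets of models, and the ANBL6BR cells stand for 1 resistant line. Neither the length of treatment nor whether replicates were separate cultures was given in the sources used here. Apart from the test across models, the p-values cover only the differences between libraries of the same group, pooled over the 10 groups. Such libraries may be technical replicates.

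As background, cells make cholesterol from acetyl-CoA through mevalonate, farnesyl diphosphate, squalene and lanosterol, and make fatty acids from acetyl-CoA through malonyl-CoA. Both routes are under the sterol regulatory element binding proteins, transcription factors encoded by SREBF2, known mostly for sterol genes, and SREBF1, known mostly for fatty acid genes. When sterols are plentiful, the proteins encoded by the INSIG genes hold the precursors in the endoplasmic reticulum; when sterols fall, the factors are cut free and reach the nucleus. Plasma cells carry a large endoplasmic reticulum and need membrane lipid to secrete antibody.

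Levels are the deposited FPKM, that is fragments scaled to gene length and library depth, and the depth recovered from these values ran from 12.11 to 20.31 M fragments per library. All 9 plasma cell markers reached 1 FPKM in at least 2 libraries, but SLAMF7 and CD79A stayed below it in every ANBL6, ANBL6BR and RPMI8226 library. The summed level of the 9 was 154 to 582 FPKM. The sum was lower with I3MO in 3 models: 396 and 399 FPKM in DMSO against 240 and 246 in ARP1, 386 and 354 against 273 and 284 in RPMI8226, and 469 and 468 against 208 and 217 in U266; the part of this in the lipid genes' values was not tested. Lists for adipocytes and liver cells, which make much lipid, summed to at most 0.248 and 0.191 FPKM, and those for myeloid cells, stromal cells, T cells, earlier B cells and erythroid cells to at most 0.622, 4.22, 6.17, 2.44 and 5.99 FPKM. The ANBL6BR DMSO libraries stood apart from each other. HMOX1, a heme oxygenase, and SQSTM1, a stress-induced gene, had 825 and 301 FPKM in replicate 2 and 99.0 and 34.2 in replicate 1, and all 18 sterol enzymes were lower in replicate 2 (median log2 difference -0.45, against 0 over all tested genes, of which 47.4% were lower). The summed plasma cell markers were 582 FPKM in replicate 1 and 224 in replicate 2, with 433 and 412 in the I3MO libraries; their part was not tested. Many counts that use these libraries, and many values that their absence moves by over 1.5 times, are also given without one of them.

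Upstream sequence was matched for 31 of the 37 genes in windows from 250 bases before to 50 after the annotated start (RefSeq, GRCh38.p14). Of these genes, 20 (64.5%) held the letters CCAAT on either strand, the core of the NF-Y binding site that is known to lie beside sterol regulatory elements, against 35.7% of 27305 promoters. The share was 80.0% among 15 sterol enzymes and 41.7% among 12 fatty acid genes. The letters GGGCGG, the GC box bound by SP1, were in 87.1% of the members and 44.6% of all promoters, and the E-box CACGTG in 12.9% and 7.43%. The classical sterol regulatory element TCACNCCAC was found on either strand in 1 of the 31 windows, that of SREBF2, and in 1.15% of all promoters; variants of the element were not searched. Shown first is the SREBF2 stretch with this element in capitals, chr22:41832952-41833000 on the plus strand, whose element begins 133 bases before the start. The other sequences are the 250 bases before the start of the members with a window that I3MO changed in at least 3 models, with CCAAT and its reverse complement ATTGG in capitals: MSMO1 (chr4:165327419-165327668, plus strand), ACLY (chr17:41919023-41919272, minus strand), ACSL3 (chr2:222860786-222861035, plus strand) and SREBF1 (chr17:17836987-17837236, minus strand), each written 5′ to 3′ along the gene's strand.
SREBF2 (49 bases): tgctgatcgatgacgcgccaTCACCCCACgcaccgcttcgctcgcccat
MSMO1: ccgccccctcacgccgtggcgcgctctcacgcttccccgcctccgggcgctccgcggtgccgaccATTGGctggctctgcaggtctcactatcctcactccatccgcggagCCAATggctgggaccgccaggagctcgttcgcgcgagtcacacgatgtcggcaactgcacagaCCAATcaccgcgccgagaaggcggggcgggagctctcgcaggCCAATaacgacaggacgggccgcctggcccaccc
ACLY: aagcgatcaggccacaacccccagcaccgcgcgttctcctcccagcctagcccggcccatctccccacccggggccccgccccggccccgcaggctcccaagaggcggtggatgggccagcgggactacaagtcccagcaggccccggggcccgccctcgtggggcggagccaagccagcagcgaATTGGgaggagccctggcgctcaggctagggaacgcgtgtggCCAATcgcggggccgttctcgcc
ACSL3: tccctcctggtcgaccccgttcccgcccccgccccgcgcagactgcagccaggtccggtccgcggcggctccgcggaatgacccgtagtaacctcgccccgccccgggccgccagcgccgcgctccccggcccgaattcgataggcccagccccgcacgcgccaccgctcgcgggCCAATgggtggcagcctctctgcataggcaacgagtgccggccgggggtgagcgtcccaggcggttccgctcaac
SREBF1: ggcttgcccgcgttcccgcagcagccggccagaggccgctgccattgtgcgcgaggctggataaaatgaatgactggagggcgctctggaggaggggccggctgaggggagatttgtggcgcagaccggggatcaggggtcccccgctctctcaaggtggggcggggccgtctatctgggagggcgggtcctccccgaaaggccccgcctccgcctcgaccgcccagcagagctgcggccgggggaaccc
MSMO1 has 4 such matches, ACLY 2, ACSL3 1 and SREBF1 0, while each of the 4 stretches has 2 or 3 GC boxes. A match is a string of letters and not a measured binding site.

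In DMSO the order of the members by level differed between models. Compared per length with FPKM remade with merged exon lengths, since the deposited lengths add up all transcripts of a gene, the highest means over the 5 models were those of FASN, the fatty acid synthase (144), SCD, the stearoyl-CoA desaturase (139), ACLY, which makes cytosolic acetyl-CoA from citrate (117), and SREBF1 (108). INSIG1, which retains the SREBF products, came next at 95.7. These means hide the order within models. FASN stood at 333 in ANBL6 and 235 in RPMI8226, where it was second to SREBF1 and first, but at 42.6 in ANBL6BR, 71.7 in ARP1 and 37.6 in U266. The highest member was INSIG1 in ANBL6BR (108), ACLY in ARP1 (144) and PMVK, the phosphomevalonate kinase, in U266 (172). The ANBL6BR rank rested on replicate 1, where INSIG1 had 153 and ACLY 101. In replicate 2 ACLY was highest at 87.9 and INSIG1 had 64.0. The lowest means were those of CYP51A1, the lanosterol demethylase, at 2.30 and of ACACB, the mitochondrial acetyl-CoA carboxylase, at 0.822. Among members detected in every DMSO group, the largest ratios between models were those of FADS2, the delta-6 desaturase of polyunsaturated fatty acids, with 76.1 in RPMI8226 and 0.873 in ARP1 on the same scale, and in SREBF1, with 355 in ANBL6 and 5.77 in U266. ME1, the malic enzyme that supplies NADPH, spanned more than either, at 26.2 in ANBL6 and with 0 fragments in both ARP1 DMSO libraries. The steadiest members were NSDHL, a sterol dehydrogenase, and HMGCS1, the cytosolic HMG-CoA synthase, whose highest model exceeded the lowest 1.26-fold and 1.71-fold.

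I3MO changed some members in every model, while the test across models called 0 members and 0 of all 15687 tested genes. A gene was tested where FPKM reached 1 in at least 2 of the 20 libraries, which 36 members did; ACACB, at most 0.997 FPKM, did not. Values were log2(FPKM + 1), differences are I3MO minus DMSO ± SE on that scale unless said otherwise, the test was limma, and a gene was called at a Benjamini-Hochberg adjusted p under 0.05 over 15687 genes. The numbers of members called were 4 in ANBL6 (0 higher, 4 lower; 7.97% of all tested genes were called, 4.10% higher and 3.87% lower), 13 in ANBL6BR (10 higher, 3 lower; 18.4%), 14 in ARP1 (9 higher, 5 lower; 37.0%, made up of 23.1% higher and 13.9% lower), 5 in RPMI8226 (2 higher, 3 lower; 14.8%, made up of 6.19% higher and 8.62% lower) and 12 in U266 (2 higher, 10 lower; 26.2%). In ARP1, RPMI8226 and ANBL6 the share of members called was close to the share of all genes. In all, 26 members were called in at least 1 model and 10 in none: PMVK, FDPS, DHCR7, INSIG1, FASN, ME1, SCD, FADS1, FADS2 and ELOVL1. Under median-ratio scaling of the libraries the ARP1 members split 5 higher and 13 lower, and of all ARP1 calls 40.1% instead of 62.5% were higher (in ANBL6 36.5% instead of 51.4%). In bulk RNA, fewer cells of a kind and less RNA per cell cannot be told apart.

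**Figure D1:**
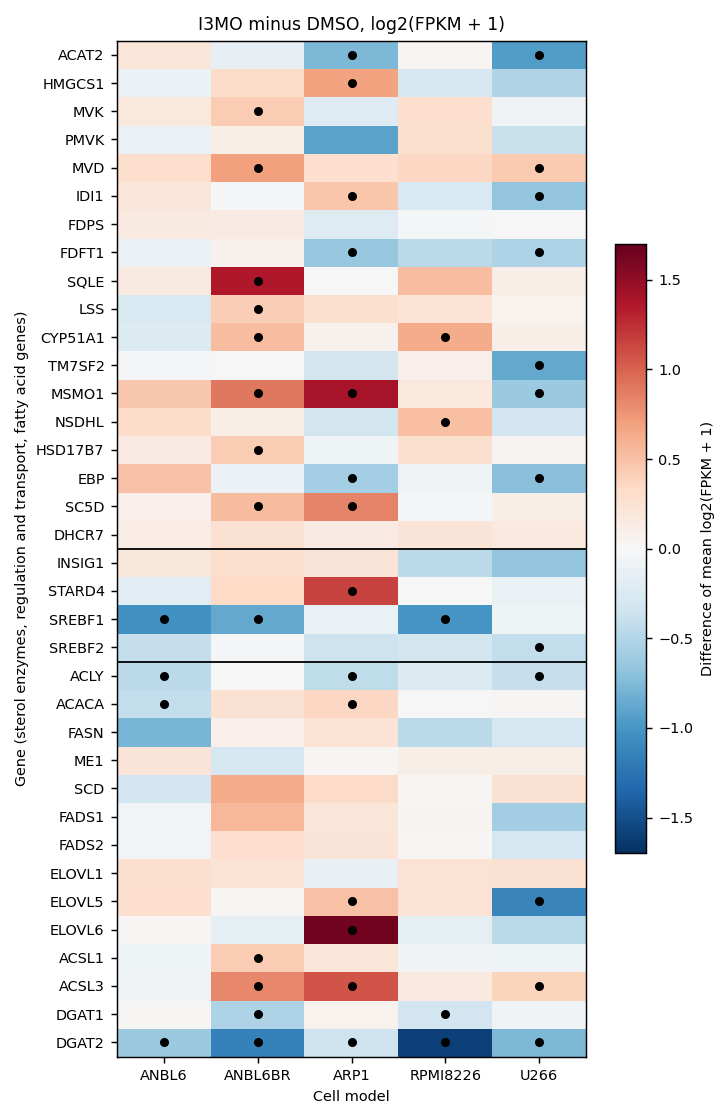
Difference of mean log2(FPKM + 1), I3MO minus DMSO, of the 36 tested genes (rows, in the order sterol enzymes, regulation and transport, fatty acid genes) in 5 cell models (columns), with 2 libraries per group. Black dots mark calls at adjusted p under 0.05; DGAT2 at the foot is dotted in all 5 columns, while MSMO1 is red in ANBL6BR and ARP1 and blue in U266.

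DGAT2, which forms triglyceride from diacylglycerol in the endoplasmic reticulum, was the 1 member that fell in all 5 models; 0.325% of all tested genes were called lower in all 5. The gene (ENSG00000062282.13) lies on chromosome 11 from 75759512 to 75801535 on hg38. Its FPKM were 1.7 and 1.69 in DMSO and 0.835 and 0.649 with I3MO in ANBL6, 3.87 and 3.99 against 1.37 and 1.09 in ANBL6BR, and 0.814 and 0.739 against 0.36 and 0.416 in ARP1. In RPMI8226 they were 4.37 and 4.26 against 0.826 and 0.724, and in U266 3.04 and 3.03 against 1.53 and 1.23. No I3MO library overlapped the DMSO libraries of its model. The differences were -0.63 ± 0.08, -1.15 ± 0.08, -0.36 ± 0.08, -1.58 ± 0.08 and -0.77 ± 0.08 in that order (limma adjusted p = 0.000862, 6.65e-06, 0.00498, 5.57e-07 and 2.56e-05), that is 2.29, 3.20, 2.00, 5.57 and 2.20 times lower means. The values rest on 91 to 1131 fragments per library, and each call held in all 20 fits that left out 1 library and in each other alternative setting. DGAT1, the other enzyme of this step, fell in ANBL6BR from 2.25 and 2.39 to 1.30 and 1.31 FPKM (-0.53 ± 0.08, limma adjusted p = 0.000856). It fell in RPMI8226 from 6.04 and 5.38 to 4.18 and 4.54 FPKM (-0.32 ± 0.08, limma adjusted p = 0.0182), a call lost without DMSO replicate 1 or I3MO replicate 1 (adjusted p up to 0.155) and with 0.1 added to FPKM in place of 1.

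The long-chain acyl-CoA synthetases activate fatty acids for lipid assembly. Calls under I3MO of the members among them were all higher: 3 models for ACSL3 and 1 for ACSL1. ACSL3 (ENSG00000123983.12, chromosome 2, 222860934 to 222944639), the form tied to lipid droplets, rose in 3 models, as 3.74% of all tested genes did. FPKM went from 4.88 and 4.64 to 7.86 and 10.7 in ANBL6BR (0.82 ± 0.13, limma adjusted p = 0.000908). They went from 2.15 and 2.98 to 6.88 and 5.95 in ARP1 (1.06 ± 0.13, limma adjusted p = 6.88e-05). Both rises held in all left-out fits. In U266 ACSL3 went from 1.7 and 1.83 to 2.64 and 2.52 FPKM (0.37 ± 0.13, limma adjusted p = 0.0480), a call that ended in 16 of 20 left-out fits, without any 1 of the U266 libraries among them (adjusted p up to 0.201), without the filter and without the variance trend. In ANBL6 it stood at 4.10 and 3.62 against 3.69 and 3.66, overlapping, and in RPMI8226 at 1.53 and 1.47 against 1.75 and 1.85. ACSL1 rose in ANBL6BR from 1.44 and 1.47 to 2.14 and 2.49 FPKM (0.43 ± 0.08, limma adjusted p = 0.00342) and differed by -0.07 in ANBL6, 0.21 in ARP1, -0.06 in RPMI8226 and -0.07 in U266, where it did not pass.

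**Figure D2:**
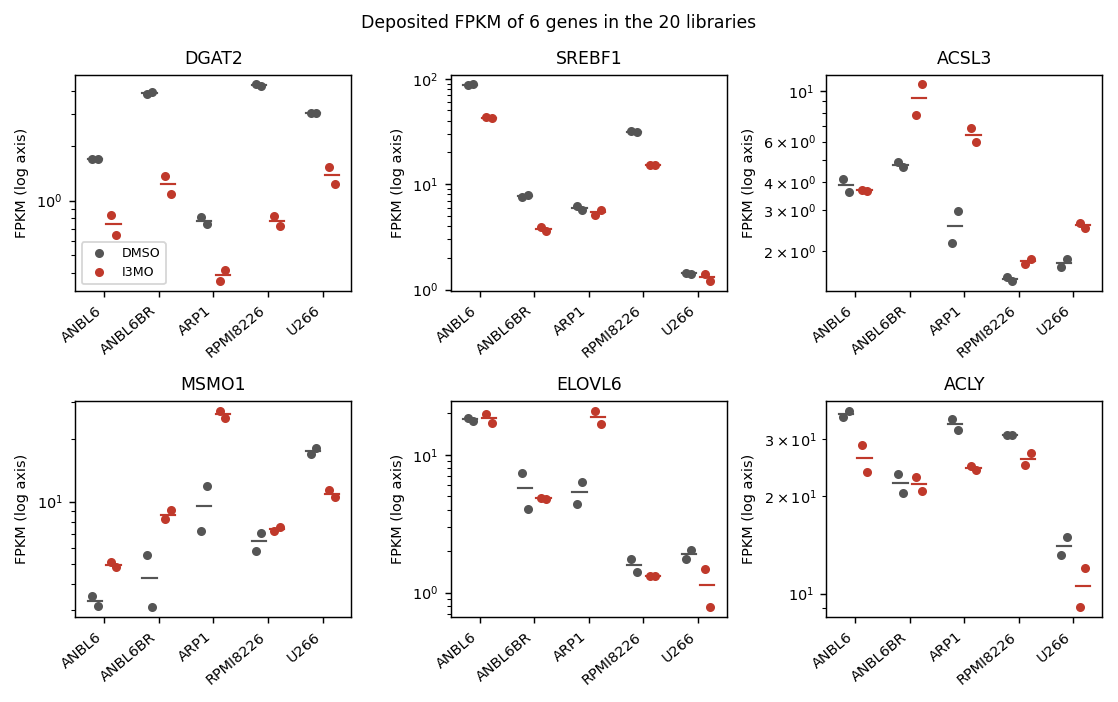
Deposited FPKM (log axis) of 6 genes in the 20 libraries, grey for DMSO and red for I3MO, 2 points per group with a line at their mean. The DGAT2 panel has red below grey in all 5 models, and SREBF1 in ANBL6, ANBL6BR and RPMI8226, where the means with I3MO were 42.8, 3.75 and 15.2 FPKM.

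Of the regulators, SREBF1 (ENSG00000072310.15, chromosome 17, 17810399 to 17837002) fell to about the same fraction in 3 models that differ widely in its level. It went from 87.8 and 88.4 to 43.0 and 42.6 FPKM in ANBL6 (-1.02 ± 0.07, limma adjusted p = 2.95e-06). In ANBL6BR it went from 7.49 and 7.88 to 3.89 and 3.61 FPKM (-0.87 ± 0.07, limma adjusted p = 9.64e-06), and in RPMI8226 from 31.8 and 31.0 to 15.1 and 15.3 FPKM (-1.0 ± 0.07, limma adjusted p = 2.03e-06). The ratios of the DMSO to the I3MO mean were 2.06, 2.05 and 2.06, no libraries overlapped, and all 3 calls held in every left-out fit and alternative. At least 3 models were called lower for 4.73% of all tested genes. In ARP1 SREBF1 stood at 6.17 and 5.74 against 5.12 and 5.73 FPKM (-0.11 ± 0.07, limma adjusted p = 0.220), although median-ratio scaling called it lower there. In U266, where it was scarce, it stood at 1.45 and 1.41 against 1.40 and 1.21 FPKM (-0.08 ± 0.07, limma adjusted p = 0.467).

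SREBF2 was called in 1 model, and its difference was negative in all 5. SREBF2 fell in U266 from 21.9 and 23.3 to 16.6 and 16.6 FPKM (-0.42 ± 0.14, limma adjusted p = 0.0390). That call was lost in 14 of 20 left-out fits, without any 1 of the U266 libraries among them. It was also lost under median-ratio scaling and without the filter. Its other differences were -0.41 in ANBL6, -0.01 in ANBL6BR, -0.35 in ARP1 and -0.31 in RPMI8226. INSIG1 passed in no model, with differences from -0.67 in U266 (26.3 and 23.7 against 12.7 and 18.6 FPKM, limma adjusted p = 0.136) to 0.27 in ANBL6BR. The ANBL6BR I3MO libraries (45.3 and 46.7 FPKM) lay between the DMSO libraries (58.7 and 24.6 FPKM). The sign of that difference thus depended on the DMSO library. STARD4, a cytosolic sterol carrier, rose in ARP1 from 0.601 and 0.937 to 3.49 and 2.38 FPKM (1.15 ± 0.18, limma adjusted p = 0.000489), a call kept in all left-out fits. In the other models it differed by -0.19 to 0.34 and did not pass.

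In ARP1 4 of 18 sterol enzymes rose and 3 fell, close to the 23.1% and 13.9% of all tested genes. Under median-ratio scaling 2 rose (MSMO1 and SC5D) and 8 fell (ACAT2, MVK, PMVK, FDPS, FDFT1, TM7SF2, NSDHL and EBP). Of 15348 genes tested under that scaling, 2439 rose and 3637 fell in ARP1. MSMO1 (ENSG00000052802.11, chromosome 4, 165327623 to 165343160), the sterol C4-methyl oxidase, rose from 7.26 and 11.9 to 27.4 and 25.3 FPKM, 2.75-fold (1.40 ± 0.21, limma adjusted p = 0.000276). SC5D, which introduces the C5 double bond, rose from 0.787 and 1.09 to 2.80 and 2.16 FPKM (0.84 ± 0.12, limma adjusted p = 0.000185). HMGCS1 rose from 3.63 and 6.75 to 9.51 and 7.75 FPKM (0.68 ± 0.20, limma adjusted p = 0.0196). IDI1, the isopentenyl diphosphate isomerase, rose from 14 and 18.3 to 24.0 and 21.4 FPKM (0.48 ± 0.14, limma adjusted p = 0.0207). The MSMO1 and SC5D calls held in all left-out fits. HMGCS1 and IDI1 lost theirs without DMSO replicate 1 (0.31 and 0.29, adjusted p = 0.239 and 0.213), without I3MO replicate 1 (adjusted p = 0.147 and 0.143) and under median-ratio scaling, HMGCS1 also without the filter; without DMSO replicate 2 HMGCS1 was at 1.05. In the other models HMGCS1 ran from -0.52 in U266 (6.21 and 6.51 against 4.89 and 3.49 FPKM, limma adjusted p = 0.0839) to 0.31 in ANBL6BR and passed in none. ACAT2, the cytosolic thiolase that opens the route, fell from 11.1 and 9.14 to 5.22 and 5.88 FPKM, and FDFT1, the squalene synthase, and EBP, a sterol isomerase, fell as well, by 0.64 and 0.58. All 3 calls were lost without I3MO replicate 1 (EBP -0.35, adjusted p = 0.110), that of ACAT2 also without DMSO replicate 1.

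The same ARP1 libraries held the largest rise of a fatty acid member. ELOVL6 (ENSG00000170522.8, chromosome 4, 110045846 to 110199199), the elongase of saturated chains, rose from 4.39 and 6.36 to 20.9 and 16.7 FPKM, 3.50-fold (1.65 ± 0.22, limma adjusted p = 0.000161). ELOVL5, the elongase of polyunsaturated chains, rose from 7.92 and 8.35 to 12.1 and 11.6 FPKM (0.49 ± 0.10, limma adjusted p = 0.00154), a call absent under median-ratio scaling. ACACA, the cytosolic acetyl-CoA carboxylase, rose from 1.63 and 1.49 to 2.56 and 1.99 FPKM (0.35 ± 0.11, limma adjusted p = 0.0300). That call was lost without DMSO replicate 1, DMSO replicate 2 or I3MO replicate 1 (0.22 and adjusted p = 0.268 without the last) and ended with 0.1 added, without the filter, under median-ratio scaling and with merged exon lengths. Genes of the integrated stress response rose in these libraries (ATF4 from 109 and 108 to 204 and 226 FPKM), and not here alone: ATF4 and TRIB3 were called higher in all 5 models and ASNS in all but ANBL6BR. In ANBL6, where no sterol enzyme was called, ASNS went from 2.54 and 2.47 to 7.93 and 9.40 FPKM. In ANBL6BR TRIB3 went from 40.4 and 52.7 to 75.0 and 99.7 FPKM. Their part in the lipid genes' values was not tested.

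In ANBL6BR 8 of 18 sterol enzymes rose and 0 fell (10.0% and 8.40% of all tested genes). They were MVK and MVD of the mevalonate steps and SQLE, LSS, CYP51A1, MSMO1, HSD17B7 and SC5D after squalene. SQLE, the squalene epoxidase, held 21.2 and 7.99 FPKM in DMSO and 34.9 and 35.4 with I3MO (1.36 ± 0.30, limma adjusted p = 0.00703). MSMO1 held 5.52 and 3.10 against 8.25 and 9.08 FPKM (0.90 ± 0.21, limma adjusted p = 0.00939). In both the I3MO libraries lay close together above DMSO libraries that lay far apart. The shares of all tested genes above are those of the fit with all libraries. They do not apply to the counts below from fits without 1 library. Without DMSO replicate 2, the library with high HMOX1, 3 of the 18 rose (MVD, SQLE and SC5D), with SQLE at 0.70 (adjusted p = 0.0158) and MSMO1 at 0.57 (adjusted p = 0.0816). Without DMSO replicate 1, 10 of the 18 rose, with SQLE at 2.01 and MSMO1 at 1.24. Without I3MO replicate 2, all 8 calls were lost (SQLE at 1.35, adjusted p = 0.0501). MVK, LSS and CYP51A1 were lost without I3MO replicate 1 too, and MVK and LSS moved from 0.43 and 0.42 to 0.68 and 0.64 without DMSO replicate 1 and to 0.19 and 0.21 without DMSO replicate 2. The MVK and LSS calls also ended without the filter, that of CYP51A1 with 0.1 added and that of HSD17B7 under median-ratio scaling.

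The fatty acid members of ANBL6BR depended on the same libraries. SCD stood at 94.8 and 36.6 FPKM in DMSO and 83.0 and 103 with I3MO (0.64 ± 0.32, limma adjusted p = 0.213), and FADS1, the delta-5 desaturase, at 16.3 and 5.79 against 13.6 and 16.6 FPKM (0.57 ± 0.30, limma adjusted p = 0.247). FADS2 stood at 26.3 and 6.54 against 15.6 and 17.3 FPKM, and ME1 at 0.493 and 3.10 against 1.25 and 0.823. In these 4 genes the I3MO libraries overlapped the range of the DMSO libraries, and none passed with all libraries. For SCD and FADS1 the I3MO libraries lay above DMSO replicate 2 and on both sides of DMSO replicate 1. The median of the fatty acid genes was 0.31 without DMSO replicate 1 and -0.077 without DMSO replicate 2. FADS2 was called lower at -0.65 (adjusted p = 0.00510) without DMSO replicate 2 and higher at 1.21 without DMSO replicate 1. ME1 was called higher at 0.44 (adjusted p = 0.0444) without replicate 2 and lower at -1.02 without replicate 1. The SREBF1, DGAT1, DGAT2, ACSL1 and ACSL3 calls of ANBL6BR held in all 20 left-out fits.

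In U266 most called members fell: 6 of 18 sterol enzymes fell and 1 rose (15.8% and 10.5% of all tested genes). TM7SF2, a sterol reductase, fell from 2.86 and 2.72 to 1.26 and 0.904 FPKM (-0.87 ± 0.13, limma adjusted p = 0.000417). ACAT2 fell from 17.2 and 16.3 to 6.59 and 10.1 FPKM (-0.95 ± 0.19, limma adjusted p = 0.00273), EBP from 18.6 and 18.4 to 11.1 and 10.6 FPKM (-0.72 ± 0.15, limma adjusted p = 0.00290) and IDI1 from 12.6 and 13.2 to 7.68 and 7.85 FPKM (-0.67 ± 0.14, limma adjusted p = 0.00425). These 4 calls held in all left-out fits. MSMO1, which rose in ARP1 and ANBL6BR, fell here from 17.0 and 18.1 to 11.4 and 10.5 FPKM (-0.64 ± 0.21, limma adjusted p = 0.0384), a call lost in 12 of 20 left-out fits, without any 1 of the U266 libraries among them (adjusted p up to 0.160), with 0.1 added and without the filter. FDFT1 fell and MVD rose, and both calls were lost without any 1 of the U266 libraries and with 0.1 added, that of FDFT1 also under median-ratio scaling and that of MVD without the filter or with merged lengths. ELOVL5 fell from 13.0 and 12.9 to 4.79 and 6.17 FPKM (-1.12 ± 0.10, limma adjusted p = 3.94e-06), the opposite of its rise in ARP1. HMOX1 rose in these libraries from 64.1 and 65.3 to 343 and 343 FPKM and TRIB3, a stress kinase homologue, from 21.2 and 20.4 to 103 and 95.2 FPKM, and their part was not tested.

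In RPMI8226 2 of 18 sterol enzymes rose and 0 fell (6.19% and 8.62% of all tested genes), with differences from -0.46 to 0.63. At an unadjusted limma p under 0.05 were 6 of the 18, and 4093 of all 15687 genes. CYP51A1 rose in RPMI8226 from 1.13 and 0.730 to 1.82 and 2.12 FPKM (0.63 ± 0.13, limma adjusted p = 0.00511), and NSDHL from 12.4 and 13.2 to 18.2 and 19.1 FPKM (0.51 ± 0.14, limma adjusted p = 0.0260). The NSDHL call was lost without any 1 of the RPMI8226 libraries (adjusted p up to 0.138) and without the filter, and that of CYP51A1 without DMSO replicate 2 or I3MO replicate 2 (adjusted p up to 0.0646). SQLE, at 18.9 and 18.2 against 26.9 and 27.5 FPKM there, did not pass (0.53 ± 0.30, limma adjusted p = 0.304), with a spread pooled over groups that include ANBL6BR DMSO. In ANBL6 none of the 18 sterol enzymes was called by limma (7.97% of all tested genes were), with differences from -0.26 to 0.50. There 3 of them (MSMO1, NSDHL and EBP) and 3583 of all 15687 genes were at an unadjusted limma p under 0.05. DHCR7, the last reductase of the route, was 0.12 to 0.26 higher in all 5 models and passed in none. In ANBL6BR it stood at 15.6 and 10.1 FPKM in DMSO against 14.5 and 16.1 with I3MO. These libraries overlapped, and the sign there depended on DMSO replicate 2.

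Among genes of fatty acid chain synthesis, ACLY fell in 3 models with small differences. It went from 35.3 and 36.8 to 28.8 and 23.8 FPKM in ANBL6 (-0.45 ± 0.12, limma adjusted p = 0.0463). It went from 34.7 and 32.2 to 24.8 and 24.2 FPKM in ARP1 (-0.43 ± 0.12, limma adjusted p = 0.0160) and from 13.2 and 15.0 to 9.07 and 12.0 FPKM in U266 (-0.39 ± 0.12, limma adjusted p = 0.0342). All 3 calls were near the threshold. The ANBL6 call ended in 15 of 20 left-out fits (adjusted p up to 0.349), including those without either ANBL6 DMSO library or I3MO replicate 2. The ARP1 call ended in 3, without DMSO replicate 1 or either I3MO library (adjusted p up to 0.102), and the U266 call in 3, without either DMSO library or without I3MO replicate 1 (-0.21, adjusted p = 0.260). Median-ratio scaling ended the calls in ANBL6 and U266, as did 0.1 added or merged lengths in ANBL6 and no filter in U266. ACACA fell in ANBL6 from 0.837 and 0.906 to 0.542 and 0.275 FPKM (-0.42 ± 0.11, limma adjusted p = 0.0455), a call lost in 11 left-out fits, among them those without either DMSO library or I3MO replicate 2 (adjusted p up to 0.355). FASN had 274 and 223 against 199 and 102 FPKM in ANBL6 (-0.79 ± 0.24, limma adjusted p = 0.0683), the largest of its differences, and 177 and 174 against 121 and 134 FPKM in RPMI8226 (-0.46 ± 0.24, limma adjusted p = 0.266). SCD lay between -0.32 in ANBL6 and 0.64 in ANBL6BR, FADS1 between -0.59 in U266 and 0.57 in ANBL6BR, and ME1 between -0.29 and 0.22.

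As a description without a test, the median difference of the 18 sterol enzymes was 0.14 in ANBL6, 0.29 in ANBL6BR, -0.04 in ARP1, 0.20 in RPMI8226 and -0.19 in U266. For the 14 fatty acid genes tested the medians were -0.05, 0.16, 0.22, 0.01 and -0.18 in the same order. Over all tested genes the medians lay between -0.02 and 0.03. The sterol median was above the fatty acid median in ANBL6, ANBL6BR and RPMI8226 and below it in ARP1 (by 0.26), and in U266 both were negative and 0.02 apart. In ARP1 median-ratio scaling moved the medians to -0.28 and 0.01. In ANBL6BR the sterol median was 0.56 without DMSO replicate 1 and 0.09 without DMSO replicate 2, and the fatty acid median 0.31 and -0.08. In ARP1 without 1 library the sterol median ran from -0.15 to 0.05.

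**Figure D3:**
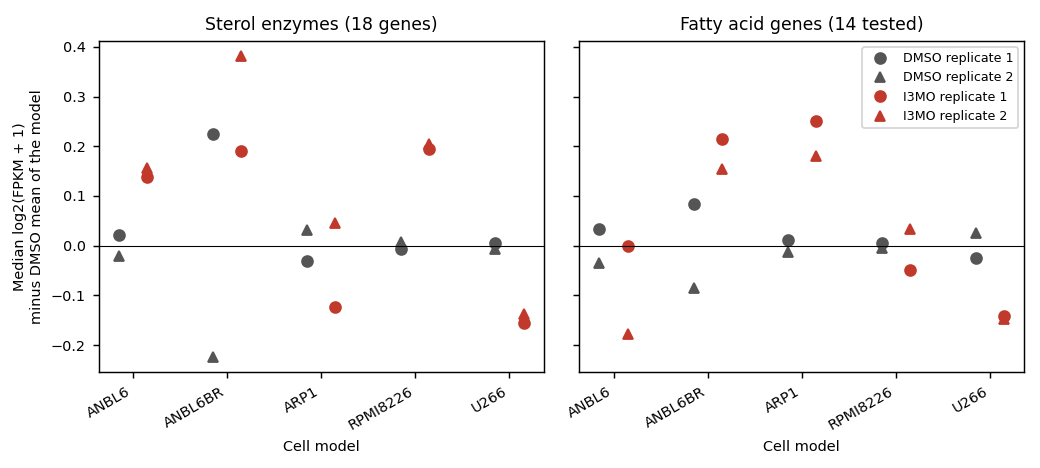
Median over the genes of a branch of log2(FPKM + 1) minus the mean of the model's DMSO libraries, by library; circles are replicate 1 and triangles replicate 2. The ANBL6BR DMSO libraries lie 0.22 above and 0.22 below their mean in the sterol panel, and their I3MO libraries at 0.19 and 0.38, while both U266 I3MO libraries lie below 0 in both panels.

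The response differed among models for 20 of 36 members by limma's F test of equal differences (44.5% of all tested genes), 11 sterol enzymes, 2 regulators and 7 fatty acid genes. The smallest adjusted p were those of SREBF1 (2.06e-05), ELOVL5 (3.14e-05), DGAT2 (9.19e-05), ELOVL6 (0.00174) and MSMO1 (0.00184), and 16 of the 20 calls held in all left-out fits. The HMGCS1, MVK and LSS calls also ended without the filter. DGAT2 was called lower in all 5 models and SREBF1 in 3, while IDI1, MSMO1, ACACA and ELOVL5 were called higher in 1 model and lower in another. For FASN, SCD, FADS1, FADS2, ME1, SQLE, DHCR7, INSIG1, SREBF2 and ACLY the test did not pass. That does not show equal responses, since the spread was pooled over groups that include ANBL6BR DMSO. The 2 libraries of that group lay far apart, for SCD at 94.8 and 36.6 FPKM and for FADS2 at 26.3 and 6.54 FPKM. Across the 5 models, with the model as a block and the spread between models as the error, limma called 0 members and 0 of all genes (0%). At an unadjusted p under 0.05 it had 7 members and 2651 of all 15687 genes. Those members were DGAT2 (-0.90 ± 0.18, adjusted p = 0.111), MVD (0.42), SREBF1 (-0.62), SREBF2 (-0.30), ACLY (-0.30), ACSL3 (0.47) and FDFT1 (-0.33).

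Between ANBL6BR and ANBL6, which received the same dose, the I3MO response differed for 7 members (8.47% of all tested genes, made up of 4.14% more positive and 4.33% more negative). It was more positive in ANBL6BR for ACSL3 (by 0.87 ± 0.18, limma adjusted p = 0.0129), CYP51A1 (0.75 ± 0.18, limma adjusted p = 0.0239), LSS, ACACA and ACSL1, and more negative for DGAT1 (-0.55 ± 0.12, limma adjusted p = 0.0144) and DGAT2 (-0.51 ± 0.12, limma adjusted p = 0.0197). ACSL1 differed by 0.51 ± 0.12 (limma adjusted p = 0.0211). None of the 7 held in all left-out fits. ACSL3 was lost without ANBL6 DMSO replicate 1 (adjusted p = 0.0584), and the other 6 both without ANBL6 DMSO replicate 2 and without ANBL6BR I3MO replicate 2, among others (adjusted p up to 0.116). The CYP51A1 and DGAT2 calls also ended with 0.1 added, that of DGAT2 with merged lengths too. Without ANBL6BR DMSO replicate 2 CYP51A1 and ACACA lost theirs and FADS2 was called at -0.60 (adjusted p = 0.0389). SQLE differed by 1.2 ± 0.42 and did not pass (limma adjusted p = 0.101). Over the sterol enzymes the difference in response had a median of 0.23. That median was 0.46 without ANBL6BR DMSO replicate 1 and -0.065 without ANBL6BR DMSO replicate 2. Fatty acid medians were 0.39, 0.52 and 0.085 in the same order.

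In DMSO, ANBL6BR and ANBL6 differed in 21 of 36 members, where 51.8% of all tested genes were called (27.0% higher, 24.8% lower). Of the sterol enzymes 7 were higher in ANBL6BR and 3 lower. Of the fatty acid genes 2 were higher and 7 lower, and both SREBF genes were lower. The shares of all tested genes are those of the fit with all libraries. They do not apply to the counts below from fits without 1 library. Without ANBL6BR DMSO replicate 1 the sterol calls were 6 higher and 5 lower (median -0.05), and without replicate 2 they were 10 and 2 (median 0.37), so the sterol balance turned on 1 library. The fatty acid calls were 2 higher and 8 lower, and 3 and 7, in the same fits. SREBF1 had 7.49 and 7.88 FPKM in ANBL6BR against 87.8 and 88.4 in ANBL6, 11.5 times less (-3.36 ± 0.07, limma adjusted p = 6.26e-13). FASN had 36.4 and 27.2 against 274 and 223 FPKM (-2.93 ± 0.24, limma adjusted p = 4.21e-07). ME1 had 0.493 and 3.10 against 27.4 and 25.3 FPKM (-3.46 ± 0.31, limma adjusted p = 1.00e-06). SCD, with 94.8 and 36.6 against 229 and 198 FPKM, and ELOVL6, with 7.41 and 4.07 against 18.5 and 17.6 FPKM, were lower too, with no overlap (-1.83 and -1.54). ACLY was lower by a smaller step, 23.4 and 20.4 against 35.3 and 36.8 FPKM (-0.70 ± 0.12, limma adjusted p = 0.000404).

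The member furthest above its level in ANBL6 was PMVK with 138 and 57.8 against 17.9 and 20.9 FPKM (2.15 ± 0.34, limma adjusted p = 0.00014). Also higher in the resistant cells were SC5D, with 3.25 and 3.08 against 1.17 and 1.06 FPKM (0.98 ± 0.12, limma adjusted p = 1.33e-05), and DGAT2, with 3.87 and 3.99 against 1.7 and 1.69 FPKM (0.87 ± 0.08, limma adjusted p = 1.61e-06). FADS1 had 16.3 and 5.79 against 1.92 and 1.78 FPKM (1.93 ± 0.30, limma adjusted p = 0.000134), SQLE 21.2 and 7.99 against 4.46 and 4.79 FPKM (1.33 ± 0.30, limma adjusted p = 0.00206) and IDI1 19.2 and 15.2 against 8.52 and 7.32 FPKM (1.02 ± 0.14, limma adjusted p = 5.53e-05). None of these 6 overlapped between the lines. Of the 21 calls 18 held in all left-out fits, the exceptions being MVK, MVD and SREBF2, and the size of some turned on the ANBL6BR libraries. Without DMSO replicates 1 and 2 in turn, PMVK was at 1.53 and 2.77, IDI1 at 0.86 and 1.18, FASN at -3.14 and -2.73, ME1 at -2.74 and -4.19 and ELOVL6 at -1.91 and -1.18. SQLE was at 0.68 without DMSO replicate 1, FADS1 at 1.25, MVK at 0.11 (adjusted p = 0.342) and MVD at -0.70. Without DMSO replicate 2 SCD was at -1.16, MVK at 0.59, MVD at -0.15 (adjusted p = 0.382) and SREBF2 at -0.26 (adjusted p = 0.0730). MVK and MVD were lost without either ANBL6 DMSO library and SREBF2 without ANBL6 DMSO replicate 1; MVK and MVD also ended without the filter, MVK under median-ratio scaling as well. FADS2 had 26.3 and 6.54 against 7.21 and 6.08 FPKM (0.91 ± 0.39, limma adjusted p = 0.0672), at 1.84 and called without DMSO replicate 2 and at -0.015 without DMSO replicate 1. This comparison and that of I3MO in ANBL6BR share the ANBL6BR DMSO libraries. The stress gene ASNS had 23.4 and 22.5 FPKM in ANBL6BR DMSO against 2.54 and 2.47 in ANBL6 DMSO, and its part was not tested.

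**Figure D4:**
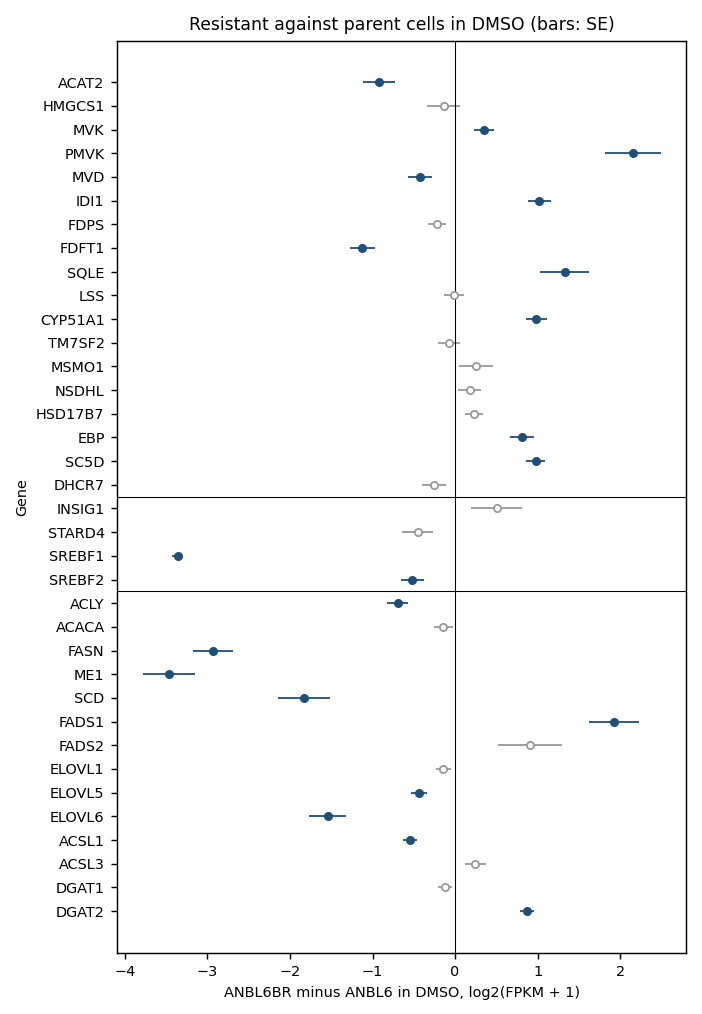
Difference of mean log2(FPKM + 1), ANBL6BR minus ANBL6 in DMSO, for 36 genes with bars of 1 SE; filled points passed at adjusted p under 0.05, open points did not, and lines part sterol enzymes, regulation and transport, and fatty acid genes. SREBF1, FASN, ME1, SCD and ELOVL6 lie furthest left, between -3.46 and -1.54, and PMVK and FADS1 furthest right, at 2.15 and 1.93.

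Other genes of these pathways, 33 of sterol and isoprenoid metabolism and 33 of fatty acid and glycerolipid metabolism, were counted beside the members. Of 32 tested in the first list, 2 rose and 2 fell in ANBL6, 7 and 2 in ANBL6BR, 13 and 4 in ARP1, 4 and 4 in RPMI8226 and 9 and 5 in U266. Of 27 tested in the second, 1 rose and 2 fell, 1 and 5, 11 and 8, 2 and 3, and 3 and 8 in the same order. In ARP1 19 of these 27 were called, against 6 of 14 fatty acid members and 37.0% of all tested genes. In U266 the other sterol genes had more rises than falls, where the sterol enzymes had 1 rise and 6 falls, and 10.5% of all tested genes rose and 15.8% fell; these differences were not tested. FADS3, a desaturase-like gene beside FADS1 and FADS2, rose in all 5 models, as 0.293% of all tested genes did. In ARP1 it went from 1.49 and 1.46 to 4.63 and 5.11 FPKM (1.25, limma adjusted p = 1.55e-06) and in U266 from 1.05 and 1.11 to 2.50 and 2.24 FPKM (0.69, limma adjusted p = 8.06e-05), while in ANBL6 the call was lost without either DMSO library or I3MO replicate 2, in ANBL6BR without I3MO replicate 2 and in RPMI8226 without DMSO replicate 2 or I3MO replicate 1. PNPLA2, the adipose triglyceride lipase, fell in all 5: in RPMI8226 from 7.68 and 7.49 to 3.76 and 3.75 FPKM (-0.85, limma adjusted p = 3.81e-05) and in U266 from 8.31 and 9.66 to 4.88 and 4.11 FPKM (-0.86, limma adjusted p = 1.28e-05). Its ANBL6 call was lost without any 1 of the ANBL6 libraries. NUS1, a subunit of the enzyme that makes dolichol for glycosylation, rose in all models but ANBL6 (1.27% of all tested genes rose in at least 4), in ARP1 from 23.2 and 26.3 to 51.1 and 48.7 FPKM (0.99, limma adjusted p = 2.46e-05); its RPMI8226 call was lost without any 1 of the RPMI8226 libraries.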

How the data were processed

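Total RNA of 20 libraries was analysed from tables of FPKM deposited by the authors, 1 per library and 1 joint, which held the same values. Per the submitters' processing notes, reads were trimmed with Trimmomatic (0.32 and 0.36 are both named), aligned to hg38 with STAR and handled with SAMtools; which tool counted fragments, and on which annotation, is not given in the sources used here. Gene symbols were taken from GENCODE 29 (56753 of 60483 identifiers matched). The steps between FPKM values gave back whole fragments and the length of each gene: the length in use equalled the summed exons of all transcripts for 94.7% of 2698 multi-exon genes of the same version, and was 0.996 to 7.07 times the merged exon length among the members, so levels were compared between genes only after rescaling. Some members share exon bases with other listed genes (FDPS 18.6%, HMGCS1 15.0%, IDI1 14.8%, DGAT1 10.9%, DGAT2 6.83%, others less), and how such fragments were counted is not given.

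The 15687 genes that reached 1 FPKM in 2 or more libraries were tested as log2(FPKM + 1) in limma 3.58.1 (R 4.3.3), with 1 mean per group, a variance trend with intensity, two-sided tests and Benjamini-Hochberg adjustment over all tested genes. The procedure was tested on simulated data. Always named with values were 15 members; others were named if among the 5 smallest p of a comparison or called one way in at least 3 models, and further members to make up a count or because a left-out library moved them. The members, lists and comparisons were chosen with earlier results of these data known. Alternatives were 0.1 added to FPKM, no filter, a filter of 1 in all libraries of a model, median-ratio scaling, merged exon lengths, no variance trend, the replicate number as a block, and each library left out, in which case the lone library is assumed to vary like the others. Promoter windows were read from RefSeq (GRCh38.p14). Sequences and positions are on that build, which hg38 shares.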

Additional observations from a re-analysis of the deposited data

Results flagged for a closer look

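Each result here passed a test of the difference itself between models; groups of 2 libraries allow no check for single outlying samples. By limma's F test of equal I3MO responses in the 5 models, adjusted p were 2.06e-05 for SREBF1, 3.14e-05 for ELOVL5, 9.19e-05 for DGAT2, 0.00174 for ELOVL6, 0.00184 for MSMO1, 0.00218 for ACSL3, 0.00386 for EBP and 0.00537 for SC5D. They were 0.00566 for DGAT1, 0.00632 for IDI1, 0.00748 for STARD4, 0.00800 for TM7SF2, 0.0108 for CYP51A1, 0.0114 for ACSL1, 0.0123 for NSDHL and 0.0142 for ACAT2. ACACA (0.0153), HMGCS1 (0.0255), MVK (0.0366) and LSS (0.0401) passed with all libraries and were lost in 1, 2, 16 and 15 of 20 fits that left out a library (ACACA without ANBL6 DMSO replicate 2, HMGCS1 without ARP1 I3MO replicate 1 or U266 DMSO replicate 2).

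Between ANBL6BR and ANBL6 the I3MO response (log2 difference, ANBL6BR minus ANBL6) differed by 0.87 for ACSL3, 0.75 for CYP51A1, 0.68 for LSS, 0.68 for ACACA, 0.51 for ACSL1, -0.55 for DGAT1 and -0.51 for DGAT2. Each of these 7 was lost when at least 1 library was left out. IDI1, MSMO1, ACACA and ELOVL5 were called in opposite directions in different models; MSMO1 was at 1.40 in ARP1 and -0.64 in U266, and ELOVL5 at 0.49 in ARP1 and -1.12 in U266, both at 10 µM.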

How the results depend on the processing

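Replicate numbers did not pair the libraries: within models the replicate differences in DMSO and I3MO correlated across genes at -0.11 to 0.03 (0.10 between ANBL6BR and ANBL6 in DMSO). With the replicate number as a block, members called were 2 in ANBL6, 3 in RPMI8226, 12 by the F test of unequal responses and 0 for ANBL6BR minus ANBL6, and other counts stayed within 1.5 times. Shares of all genes called are not given for the fits of this paragraph. Its counts thus do not show whether a change is particular to the members. Leaving out 1 library at a time, members called ran from 2 to 7 in ANBL6, 5 to 21 in ANBL6BR, 7 to 20 in ARP1, 3 to 11 in RPMI8226, 6 to 15 in U266, 17 to 33 by the F test, 1 to 17 for ANBL6BR minus ANBL6 and 18 to 24 for ANBL6BR against ANBL6; across models it was 0 throughout.

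Sterol medians under the same left-out fits ran from 0.12 to 0.16 in ANBL6, 0.086 to 0.56 in ANBL6BR, -0.15 to 0.046 in ARP1, 0.15 to 0.21 in RPMI8226 and -0.22 to -0.14 in U266. Fatty acid medians ran from -0.18 to 0.00 (-0.00064), -0.077 to 0.31, 0.15 to 0.25, -0.049 to 0.033 and -0.24 to -0.088. With 0.1 added to FPKM the sterol medians were 0.18 in ANBL6, 0.21 in RPMI8226 and -0.22 in U266, and the fatty acid medians 0.28 in ARP1 and -0.21 in U266. With merged exon lengths they were 0.17 (ANBL6 sterol), -0.21 (U266 sterol), 0.26 (ARP1 fatty acid) and -0.21 (U266 fatty acid). Under median-ratio scaling the sterol medians were 0.11 in ANBL6, -0.28 in ARP1, 0.26 in RPMI8226 and -0.14 in U266, and the fatty acid medians 0.012 in ARP1, 0.051 in RPMI8226 and -0.13 in U266.

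Without ANBL6BR DMSO replicate 2 values changed sign and passed for FADS2 (-0.65) and ME1 (0.44) in ANBL6BR and for FADS2 in ANBL6BR minus ANBL6 (-0.60), against 1.21, -1.02 and 1.26 without replicate 1; the cause was not tested. Depth limits ME1 in ARP1, where its libraries hold 0 to 2 fragments.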
